A study of Mus musculus with 12 samples.

Results

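Newborn neurons of the olfactory bulb arise in the lateral ganglionic eminence and the subventricular zone and travel to the bulb as chains of migrating neuroblasts, and a set of 8 genes that mark such cells is described here across the newborn mouse prefrontal cortex: Calb2, Sp8, Sp9, Zic1, Pax6, Etv1, Prokr2 and Tshz1. They were chosen by name, with their measured levels by cell type and genotype in these libraries already in view, and all 8 were found among the 18879 genes measured. Every level and ratio is therefore a description, and none was tested. Their roles differ: Sp8 and Sp9 are paired zinc finger factors needed for these interneurons, Pax6 and Etv1 (also called Er81) are transcription factors of dopaminergic bulb neurons and their progenitors, Zic1 is a zinc finger factor of septal and meningeal development, Tshz1 is a zinc finger factor needed in bulb interneurons, Prokr2 is the receptor that answers the bulb chemoattractant prokineticin 2, and Calb2 encodes calretinin, a calcium-binding protein of one bulb interneuron class. Each of these genes is also used outside the bulb lineage, for example Pax6 in cortical radial glia, Tshz1 in striatal neurons and Calb2 in Cajal-Retzius cells.

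The cells came from prefrontal cortex of mice at postnatal day 0 that were wild type (WT), heterozygous (HET) or homozygous (HOM) for a germline frameshift allele of Myt1l, which encodes a zinc finger transcription factor of neurons, made by a 7 bp deletion in exon 6. All cells of a mutant animal carry the allele. The sample labels give the strain as C57BL/6J, while the methods of the study name the C57BL/6N substrain for making and breeding the allele. Cells of 2 animals per genotype were fixed in methanol, given barcode oligonucleotides, pooled and run as 1 droplet library read from the 5′ end, so that the 12 samples of the series stand for 3 libraries sequenced in 4 runs each. With 1 library per genotype and no label that ties a cell to its animal, no difference between genotypes could be set against the spread between animals. The dissection also held striatal, ganglionic eminence and subventricular cells, as the deposited cell type names show.

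The WT library held 10503 cells, the HET library 12072 and the HOM library 13688, with a median of 1045, 1099 and 1330 molecules per cell. Libraries shared 199 to 240 cell barcodes in pairs, at most 2.05% of a library. The X-inactivation RNA Xist was found in 23.9% of WT Int4 cells and in 0 HET and 0 HOM Int4 cells, and Y-linked transcripts in all 3 libraries, so the WT pool held female and male cells and the HET and HOM pools gave no sign of female cells. The study's text assigns the cell totals to the genotypes in another order than the deposited cell table does, and the genotype names used here are those of the table. Levels are depth-corrected values summed over the cells of 1 library and type and given per 1000000 of all genes (CPM), and a count is such a value before that division. Myt1l itself was at 162 CPM (WT), 160.2 (HET) and 280 (HOM) in Int4, and since a frameshift need not lower a transcript, this does not check the labels.

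The 8 genes were read first in Int4 [6-P] (611 WT, 477 HET and 395 HOM cells), SVZ1 (migrating) [2-P] (979, 561 and 792), Ganglionic eminences [9-P] (542, 356 and 445), Striatal inh1 [3-P] (180, 342 and 393) and Striatal inh2 [7-P] (340, 503 and 639). The number in brackets is part of the deposited name. The Int4 name was checked against 32 other genes of bulb interneurons and neuroblasts. Of these, 7 had their highest level in Int4 among 18 types (Dlx1, Dlx2, Dlx5, Dlx6, Dlx6os1, Gad1 and Tiam2), and 16 had Int4 among their top 3 types, 2 of them (Th and Scgn) at a mean of only 2.20 and 1.64 CPM there. Dlx1, a homeobox factor of all forebrain GABAergic neurons, was at 1266 CPM (WT), 1021 (HET) and 826 (HOM). Th, which marks mature dopaminergic bulb neurons, was listed at 0 in WT and HET and at 6.61 CPM in HOM, and Scgn and Prok2 were also below 7 CPM in each library. Int4 was therefore an immature GABAergic population by these genes, without the late bulb markers.

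**Figure D1:**
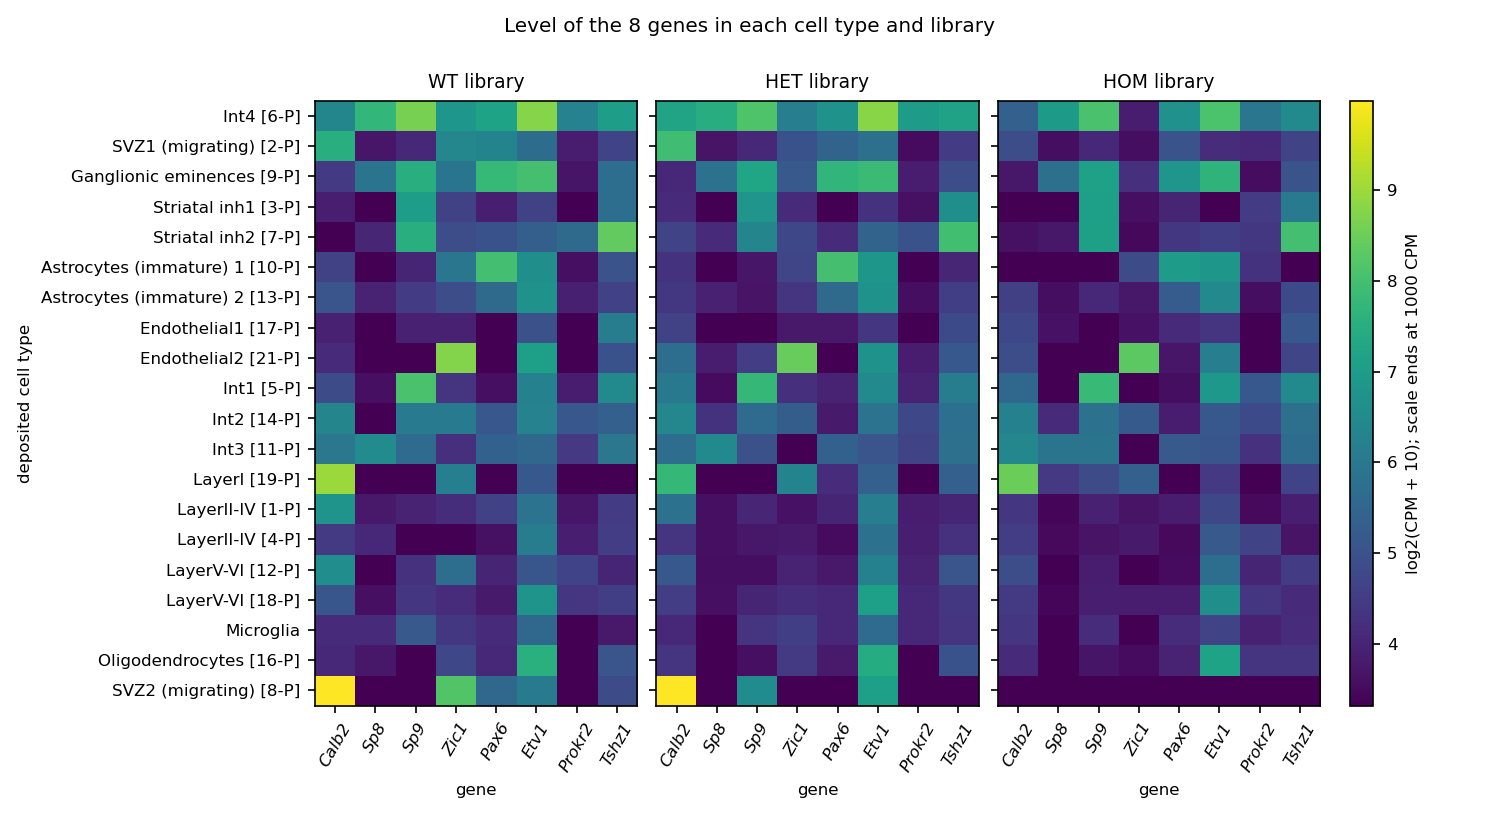
Level of the 8 genes (columns) in each deposited cell type (rows) for the WT, HET and HOM library, as log2(CPM + 10) in colour, with levels past the top of the scale drawn in its last colour. The Int4 row is bright for Sp8, Sp9 and Etv1 in each library, Zic1 is brightest in Endothelial2, and the SVZ2 row rests on 44 WT, 19 HET and 3 HOM cells.

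Sp8 and Sp9, a related pair of factors, were both highest in Int4 among the 18 types for which no library had under 100 cells, but differed in where else they were seen. The level of Sp8 in Int4 was 202 CPM (WT), 167 (HET) and 115 (HOM). The next types were Int3 [11-P], with 48.9 to 83.5 CPM over the libraries, and Ganglionic eminences, with 44.9 to 48.7, and their ranges did not overlap with Int4 or with each other. Sp8 was at 0 in every Striatal inh1 cell of the 3 libraries, which by a limit of 3 counts allows a share of up to 1.67% of WT, 0.877% of HET and 0.763% of HOM cells. That limits cells with a count and not cells that express Sp8, at a median of 1573 to 2468 molecules. Sp9 was present there and in more types. Its level in Int4 was 382 CPM (WT), 274 (HET) and 260.0 (HOM), followed by Int1 [5-P] with 206 to 257. Ganglionic eminences (130 to 171 CPM), Striatal inh2 (72.4 to 174) and Striatal inh1 (101 to 125) came next, and neighbours among these 3 overlapped. Sp8 stayed below 10 CPM in every library of each type after the Ganglionic eminences. By GENCODE M21 (mm10) Sp8 lies on chromosome 12 (118846329 to 118852576) and Sp9 on chromosome 2 (73271925 to 73284706), both on the plus strand.

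The start regions of the pair are shown because they hold a shared run of letters. RefSeq (GRCm38.p6, the mm10 build) lists 3 start sites for Sp8 and 1 for Sp9, and a search for the longest run common to an Sp8 and an Sp9 window (250 bases before to 50 after a start site) found 15 bases, in capitals, 58 bases before the second Sp8 start site and 30 bases before that of Sp9. Of 32851 windows in the table, 2 held that run on either strand, these same ones. The last 30 bases of that Sp8 window were not found in a GENCODE M21 transcript of Sp8. Those of the Sp9 window were found in one of Sp9. The 250 bases before each start site read 5′ to 3′, both on the plus strand, the first at chr12:118846983-118847232 within the annotated Sp8 gene and the second at chr2:73271676-73271925.
Sp8: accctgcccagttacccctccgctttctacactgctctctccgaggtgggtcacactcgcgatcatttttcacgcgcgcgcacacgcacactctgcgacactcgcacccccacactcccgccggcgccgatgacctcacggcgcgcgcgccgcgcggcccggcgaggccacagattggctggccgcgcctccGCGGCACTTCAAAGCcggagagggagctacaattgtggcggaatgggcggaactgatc
Sp9: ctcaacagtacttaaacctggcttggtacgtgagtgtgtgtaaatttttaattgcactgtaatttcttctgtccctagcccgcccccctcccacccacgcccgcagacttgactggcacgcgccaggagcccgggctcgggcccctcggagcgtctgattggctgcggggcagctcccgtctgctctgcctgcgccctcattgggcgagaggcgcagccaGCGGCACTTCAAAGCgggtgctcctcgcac
A shared run is a description of the letters and not a binding site.

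Etv1 and Pax6, transcription factors of bulb neuron precursors, were shared by Int4 and the Ganglionic eminences. In Int4 cells Etv1 stood at 429 CPM (WT), 432 (HET) and 264 (HOM), above the 190.1 to 249.6 of the Ganglionic eminences. Oligodendrocytes [16-P] followed with 135 to 177 CPM, and LayerV-VI [18-P], where Etv1 is known from layer V projection neurons, with 88.7 to 125. In the same cells Pax6 reached 136 CPM (WT), 95.1 (HET) and 92.5 (HOM). It was higher in Ganglionic eminences, with 209.7 (WT), 198 (HET) and 102 (HOM), and in Astrocytes (immature) 1 [10-P], with 245 (WT), 251 (HET) and 115 (HOM). The ranges of Pax6 in these 3 types overlapped from one to the next, while SVZ1, the fourth, lay below them at 69.9 (WT), 33.3 (HET) and 22.6 CPM (HOM). Etv1 lies on chromosome 12 (38779380 to 38870484) and Pax6 on chromosome 2 (105668900 to 105697364), both on the plus strand.

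Tshz1 and Prokr2 linked Int4 with Striatal inh2. Tshz1 was highest in Striatal inh2, and is a known gene of striatal neurons, at 320.4 CPM (WT), 240.4 (HET) and 247 (HOM). In Int4 it was at 124 CPM (WT), 132 (HET) and 79.3 (HOM). Prokr2, the receptor, was highest in Int4, at 67.9 CPM (WT), 118 (HET) and 50.7 (HOM), and the next type was Striatal inh2 with 11.2 to 39.2. In Ganglionic eminences and SVZ1 Prokr2 did not pass 6.89 CPM in any library. Prokr2 lies on chromosome 2 (132337733 to 132385447, minus strand).

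Zic1 and Calb2 had their highest levels outside Int4. Zic1 was highest in Endothelial2 [21-P], a type in which Zic1 marks mural and meningeal cells, at 418 CPM (WT), 337 (HET) and 306 (HOM). Its level in Int4 was 103 CPM (WT), 61.7 (HET) and 4.41 (HOM). In SVZ1 it was 74.0 CPM (WT), 22.2 (HET) and 1.97 (HOM). Among the 18 types Calb2 was highest in SVZ1, at 169 CPM (WT), 236 (HET) and 19.7 (HOM), and second in Int4, at 73.3 (WT), 137 (HET) and 30.8 (HOM). The ranges of Calb2 overlapped between neighbours among the first 6 types in that order. Zic1 lies on chromosome 9 (91358058 to 91365810) and Calb2 on chromosome 8 (110137502 to 110168210), both on the minus strand. Among the smaller types, SVZ2 (migrating) [8-P] had 2107 CPM in 44 WT cells and 2764 in 19 HET cells, with 0 in 3 HOM cells, and LayerI [19-P], which holds Cajal-Retzius cells, had 497, 205 and 347.

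Single cells were then read for how many of the 8 genes they held, since a level summed over a type can come from few cells. The share of cells with a gene above 0 depends on depth, and the deposited values could not be thinned to 1 depth. Microglia, which should lack these genes, gave a background share of at most 1.62% for the other 7 genes and for Etv1 of 4.05% (WT), 3.60% (HET) and 1.73% (HOM). Their median depth was 741, 760 and 819 molecules and their cell type name had a median probability of 0.627 to 0.653. In Int4, with a median of 1196, 1527 and 913 molecules, Sp9 was above 0 in 33.9% of WT cells (exact 95% binomial interval 30.1 to 37.8), 27.3% of HET (23.3 to 31.5) and 22.8% of HOM (18.7 to 27.2). Such intervals cover counting error only. Sp8 was above 0 in 21.3%, 18.9% and 10.4% of Int4 cells, Etv1 in 31.9%, 33.5% and 19.5%, and Tshz1 in 12.3%, 14.5% and 7.34%, in the order WT, HET, HOM. Pax6 was above 0 in 12.1%, 9.22% and 8.10%, Prokr2 in 7.04%, 12.2% and 5.06%, and Calb2 in 4.75%, 7.13% and 3.04%. All 7 genes other than Zic1 were thus above the microglial share in each Int4 library. Zic1 was above 0 in 7.69% of WT (5.71 to 10.1), 5.45% of HET (3.59 to 7.89) and 0.506% of HOM Int4 cells (0.0614 to 1.82), the last within the background range. In SVZ1, with 3889 to 4078 molecules, Etv1 was above 0 in 3.98% of WT, 4.28% of HET and 1.01% of HOM cells, which is at or near the microglial share and is read as background. Sp8, Sp9 and Prokr2 were each above 0 in under 1% of SVZ1 cells of every library.

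**Figure D2:**
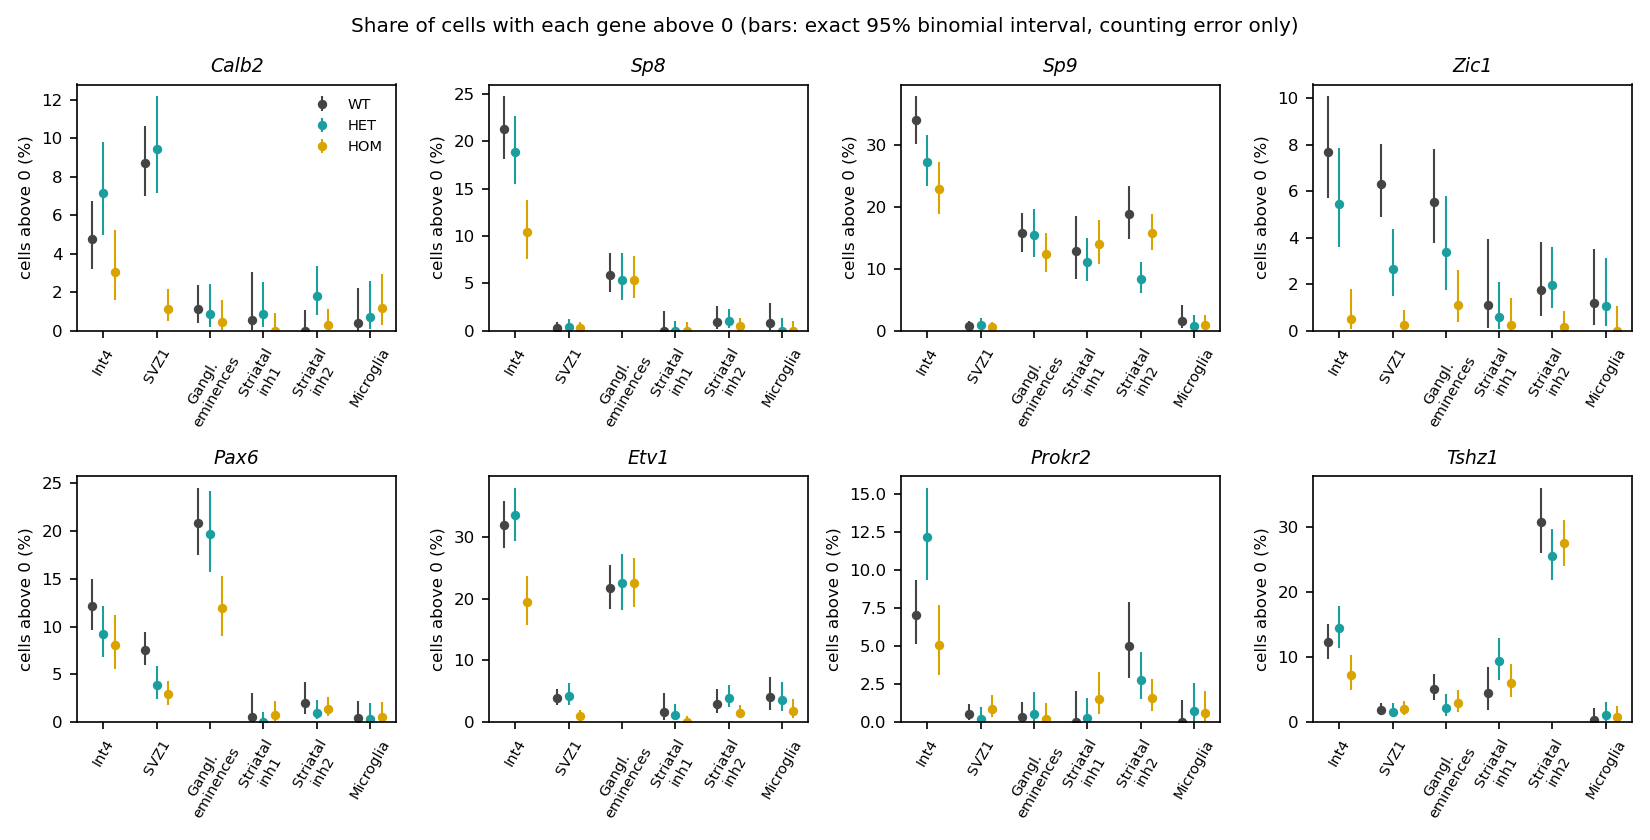
Share of cells (percent) with each of the 8 genes above 0 in 5 cell types and in Microglia, for the WT, HET and HOM library, with exact 95% binomial intervals that cover counting error only. Zic1 is at 7.69% of WT and 0.506% of HOM Int4 cells, Calb2 at 8.68% of WT and 1.14% of HOM SVZ1 cells, and Tshz1 is at 25.6% to 30.9% in Striatal inh2.

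At least 1 of the 8 genes was found in 62.2% of WT Int4 cells, 58.5% of HET and 41.5% of HOM. At least 3 were found in 21.1% of WT (17.9 to 24.6), 20.3% of HET (16.8 to 24.2) and 10.1% of HOM Int4 cells (7.33 to 13.5). In Ganglionic eminences 3 or more were found in 5.39% to 7.38% of cells, in Striatal inh2 in 1.56% to 3.53%, in SVZ1 in 0% to 0.535%, and in Striatal inh1 in none of the 180 WT, 342 HET and 393 HOM cells, with exact upper bounds of 2.03%, 1.07% and 0.934%. Int4 cells with 3 or more had a median of 3165 molecules and the other Int4 cells 907, so the share moved with depth.

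Among 28 gene pairs in the 1483 Int4 cells, 25 were seen together in more cells than the product of their single shares gives, and 3 in fewer. For each of the 8 genes the Int4 cells that held it were deeper than those that did not, so only the order of the pairs is described. Calb2 and Zic1 led, with 22 cells that held both where the product gives 3.79, a ratio of 5.80. In WT 13 of 29 Calb2 cells held Zic1 and in HET 9 of 34, against 47 of 611 and 26 of 477 Int4 cells overall. No HOM Int4 cell held both, with 12 Calb2 cells and 2 Zic1 cells. Prokr2 and Tshz1 came second with 45 cells against 14.1, a ratio of 3.19, which was 3.60 (WT), 2.62 (HET) and 2.72 (HOM). Calb2 with Tshz1 was lowest at 0.69, from 6 cells, and Calb2 with Prokr2 and Zic1 with Prokr2 were both at 0.98, from 6 cells each. Calb2 and Prokr2 were seen together in 0 WT, 5 HET and 1 HOM Int4 cells, so their ratio differed between libraries and rests on few cells.

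**Figure D3:**
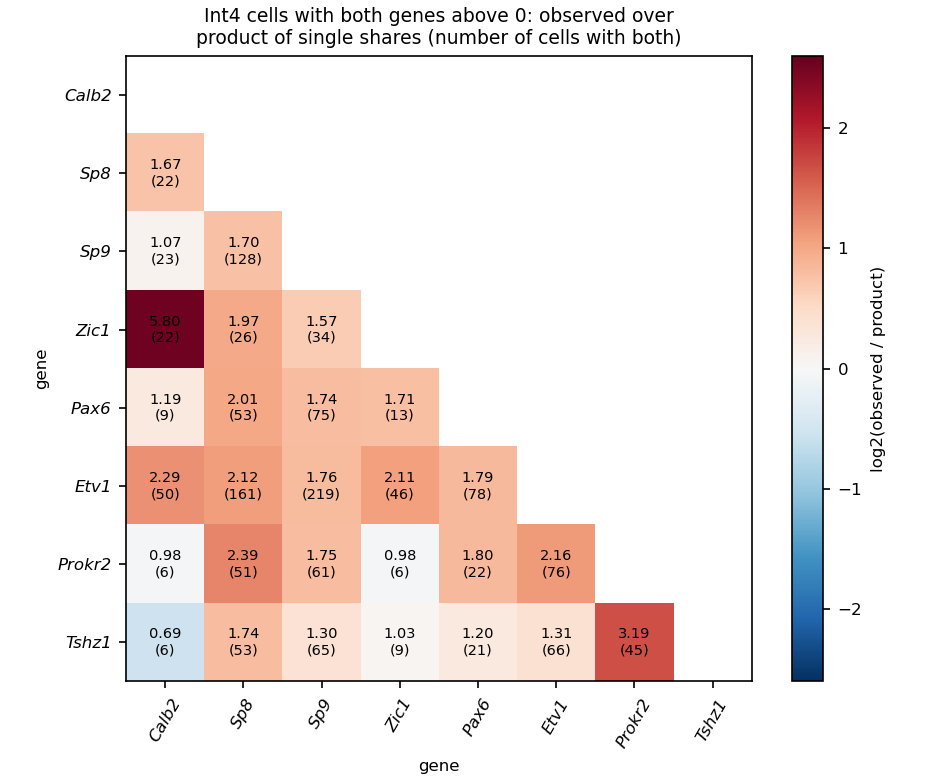
Int4 cells of the 3 libraries together (1483 cells) in which both genes of a pair were above 0, divided by the product of the single shares, with the number of cells in parentheses and log2 of the ratio in colour. Calb2 with Zic1 is at 5.80 and Prokr2 with Tshz1 at 3.19, and Calb2 with Tshz1 is at 0.69.

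Calb2 in SVZ1 and SVZ2 lay in cells without the GABAergic genes. In WT SVZ1 cells with Calb2 (85 cells) Dlx1 was at 18.7 CPM and Gad1, which makes GABA, at 9.36, from 2 counts and 1 count. Zic1 was at 281 CPM in these cells and at 54.1 in the 894 WT SVZ1 cells without Calb2. Dcc, the netrin receptor of migrating axons and neurons, was at 646 against 260.4 CPM, and Eomes, the factor of intermediate progenitors, at 74.9 against 284. The semaphorin gene Sema3c was at 824 against 552 CPM, and Neurod1, a factor of newborn excitatory neurons, at 477 against 451. The 46 SVZ2 cells with Calb2 had Dcc at 895 CPM, Sema3c at 1257, Neurod1 at 344, Dlx1 at 17.2 and Eomes at 0. In Int4, by contrast, WT cells with Calb2 (29 cells) had Dlx1 at 1186 CPM, Gad1 at 323 and Zic1 at 889, with Eomes and Sema3c at 0. Calb2 and Zic1 were therefore both present in cells with and in cells nearly without Dlx1 and Gad1, and in SVZ1 they did not mark interneurons by these genes. In the HOM library 9 SVZ1 cells held Calb2, and none of them held Zic1, Dlx1, Gad1 or Eomes, while Sema3c had 4 counts and Neurod1 2. So few cells set no useful limit on a gene at 0.

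The first comparison between genotypes sets HET, with 1 mutant copy of Myt1l, beside WT. In this and the next comparison, genotype cannot be told apart from library. Nor can it be told apart from female cells, of which the HET and HOM pools gave no sign. Ratios were taken for genes with at least 50 counts in a pair of libraries combined, and a ratio past 1.5-fold in either direction was counted. In Int4 all 8 genes could be compared between HET and WT. In HET, 2 were higher past 1.5-fold, Calb2 at 1.87-fold (log2 0.90) and Prokr2 at 1.74-fold (log2 0.80), and 1 was lower, Zic1 at -0.74 on the log2 scale. Of 4941 genes compared in Int4, 6.27% were higher and 5.04% lower past that fold. The other 5 genes lay between -0.51 for Pax6 and 0.09 for Tshz1, and the median of the 8 was -0.13 against 0.03 over all genes. Sp8 was at -0.28, Sp9 at -0.48 and Etv1 at 0.01. When only cells holding Y-linked transcripts were kept, Calb2, Prokr2 and Zic1 had too few counts in Int4 to be compared, and Sp9 and Etv1 were lower past the fold, at -0.71 and -0.63. The HET over WT ratio of the share of Int4 cells was 0.709 for Zic1 (interval 0.421 to 1.17) and 1.502 for Calb2 (0.888 to 2.56), and both intervals span 1.

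In SVZ1, HET differed from WT in Zic1, at -1.73 on the log2 scale, and in Pax6, at -1.07, while Calb2 was at 0.48 and Etv1 at 0.11, where 7.04% of 5812 genes were lower and 3.46% higher past 1.5-fold. The share of SVZ1 cells with Zic1 was 0.422 of that in WT (interval 0.223 to 0.751, counting error only). In Ganglionic eminences none of 4 genes passed the fold, with 4.94% of genes higher and 8.03% lower there. Sp9 in Striatal inh2 was lower at -1.27, with 7.19% of 5018 genes lower in that type and 6.42% higher, and Tshz1 was at -0.41. Sp9 in Striatal inh1, the single gene compared there, was at -0.29, with 7.05% of genes higher and 6.44% lower. For Zic1 in HET against WT, the share interval lay below 1 in SVZ1 and spanned 1 in Int4. Neither covers the spread between animals or differences in depth.

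**Figure D4:**
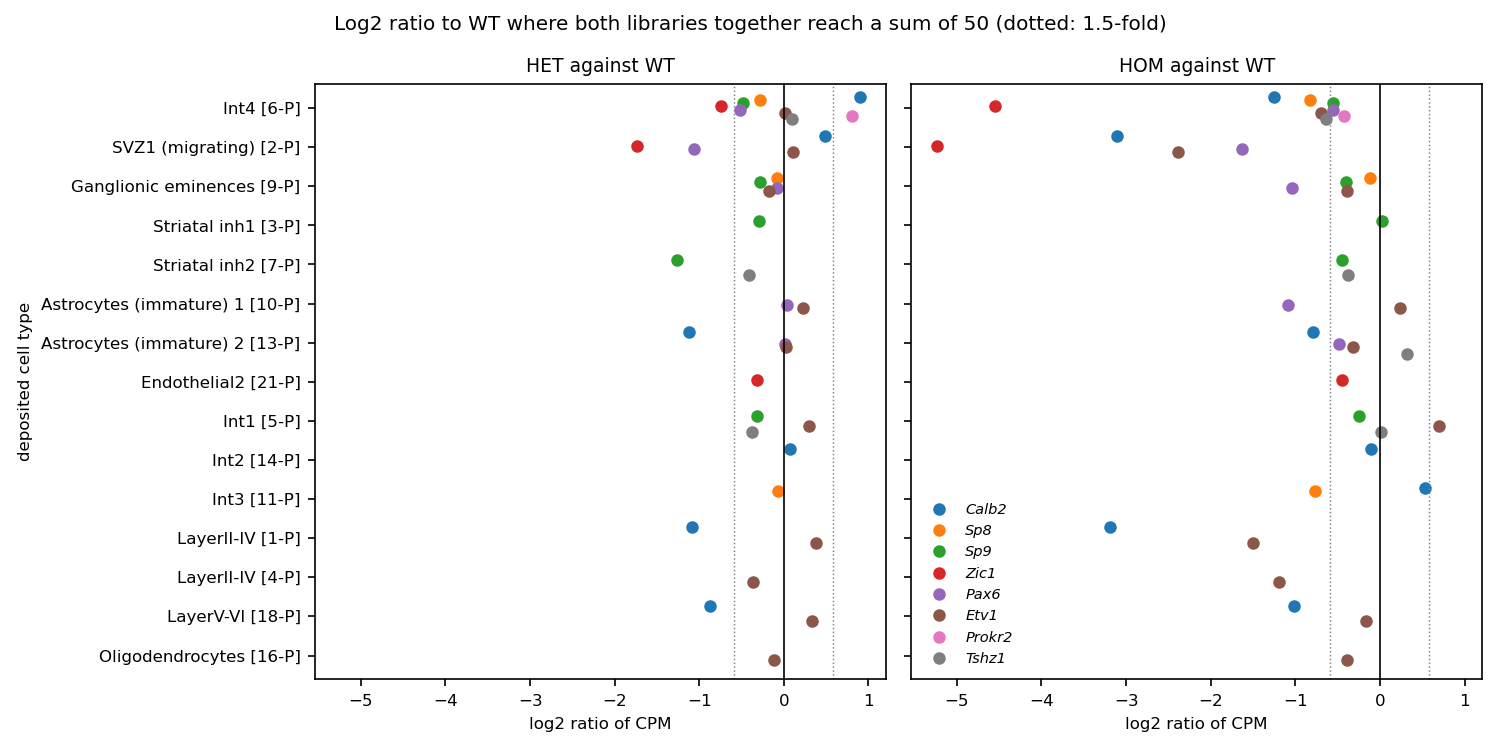
Log2 ratio of CPM to WT for each of the 8 genes in each cell type with at least 50 counts in the pair of libraries, for HET (left) and HOM (right), with dotted lines at 1.5-fold. In HOM the values of Zic1 in Int4 (-4.55) and SVZ1 (-5.23) and of Calb2 in LayerII-IV [1-P] (-3.18) and SVZ1 (-3.11) lie farthest to the left.

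The next comparison sets HOM, without an intact copy, beside WT, with the same limit. In HOM Int4 all 8 genes were below WT and 5 of them past 1.5-fold, where 19.9% of 4212 genes were lower and 6.96% higher. The median of the 8 was -0.67 against -0.13 over all genes. Zic1 was at -4.55 on the log2 scale from 2 counts in HOM and 76 in WT, and the share of Int4 cells with Zic1 was 0.0658 of that in WT (interval 0.00774 to 0.251). Calb2 was at -1.25, with a share of cells 0.640 of that in WT (0.297 to 1.29), an interval that spans 1. Sp8 was at -0.82, Etv1 at -0.70 and Tshz1 at -0.64. Sp9, at -0.55, and Pax6, at -0.55, stayed just inside the fold, and Prokr2 was at -0.42. The count of 5 was 3 with median-of-ratios scaling, 3 among cells with at least 2000 molecules and 3 among cells with a cell type probability of at least 0.9. It was 0 when only cells holding Y-linked transcripts were kept, where Sp9 (-0.39) and Etv1 (-0.22) were the Int4 genes left to compare.

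Int4 cells lay in several clusters of the deposited latent space, and the one with the most of them, cluster 13 (median 2995, 3041 and 3409 molecules), held 53.5% of WT, 51.4% of HET and 31.6% of HOM Int4 cells. In WT 229 of the 281 Sp9 counts and 275 of the 316 Etv1 counts of Int4 lay in this cluster. Restricted to it, a choice made after seeing the data, the HOM library differed from WT past 1.5-fold in 2 genes. The share of all genes past that fold is not given for the cluster. Those were Zic1, at 143 CPM (WT), 93.7 (HET) and 5.99 (HOM, from 1 count), and Calb2, at 102, 187 and 47.9. Calb2 there rests on 8 counts in HOM and 45 in WT. Sp8 was at 299, 253 and 204 CPM, a log2 ratio of -0.55 for HOM against WT. Sp9, at 518, 366 and 527 CPM, and Pax6, at 190.1, 128 and 186, differed by under 1.5-fold between WT and HOM. Etv1 was at 622, 662 and 575 CPM, and Prokr2 at 102, 182 and 132. The smaller share of cluster 13 in HOM thus moved with the lower Int4 levels of Etv1, Sp9 and Pax6, and its part in them was not tested. Zic1 and Calb2 were past the fold within the cluster too.

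**Figure D5:**
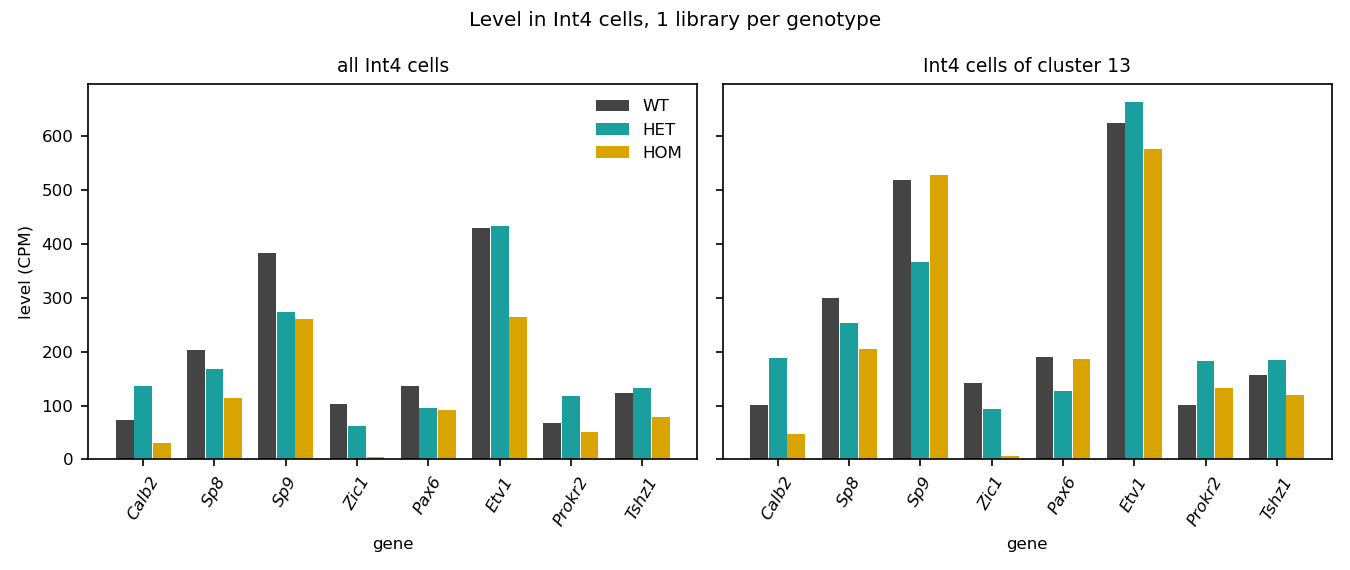
Level (CPM) of the 8 genes in all Int4 cells (left) and in Int4 cells of latent-space cluster 13 (right), bars for the WT, HET and HOM library with 1 library per genotype and no error. In cluster 13 Sp9 is at 518 in WT and 527 in HOM, while Zic1 is at 143 and 5.99.

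In SVZ1 the 4 genes compared were all lower in HOM past 1.5-fold, where 14.6% of 6206 genes were lower and 6.85% higher. Zic1 was at -5.23 on the log2 scale from 2 counts in HOM and 90 in WT, and the share of cells with it was 0.0399 of that in WT (interval 0.00472 to 0.150). Calb2 was at -3.11, and 9 of 792 HOM cells held it against 85 of 979 WT cells, a share ratio of 0.131 (0.0579 to 0.260). Pax6, which also marks radial glia and early progenitors, was at -1.63. Etv1 was at -2.38, from shares that lie at the microglial background, where its level was 37.3 CPM (WT), 40.3 (HET) and 15.9 (HOM).

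Zic1 in Endothelial2 is set beside these values. It was at 418 CPM in WT and 306 in HOM, a log2 ratio of -0.45, and the share of cells with it was 0.773 of that in WT (interval 0.522 to 1.16). The same ratio was 0.203 (0.0615 to 0.528) in Ganglionic eminences, 0.295 (0.0567 to 0.976) in Astrocytes (immature) 1 and 0.177 (0.0686 to 0.411) in Astrocytes (immature) 2. In Astrocytes (immature) 2 Zic1 lay near the background, at 3.54 to 19.6 CPM over the libraries beside 0 to 13.4 in Microglia. The interval of Endothelial2 did not overlap with those of Int4, SVZ1 and Astrocytes (immature) 2. These intervals cover counting error only, and not the spread between animals or differences in depth. Zic4, the neighbour of Zic1 in the genome, was at 16.3 CPM (WT), 5.01 (HET) and 0 (HOM) in Int4, and at 117, 82.0 and 78.1 in Endothelial2. The Zic1 level in WT SVZ1 cells was 96.2 CPM in those with Xist and 134 in those with a Y-linked transcript, and in Int4 126 and 149.7, so it was present in WT cells of both sexes. With 2 WT animals pooled, the female and male cells came from different animals, so sex cannot be told apart from animal here. The other members differed between these groups of WT Int4 cells, given in the same order. Pax6 was at 257 and 149.7 CPM, Tshz1 at 213 and 112, Sp8 at 325 and 250, and Calb2 at 77.6 and 37.4, from 16 and 3 counts. Sp9 was at 456 and 536, Etv1 at 562 and 699, and Prokr2 at 102 and 149.7. The part of sex or of animal in the ratios to WT was not tested.

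In Ganglionic eminences Pax6 was lower in HOM, at -1.04 on the log2 scale, and Etv1, Sp9 and Sp8 were at -0.39, -0.40 and -0.12, with 17.9% of 4016 genes lower there and 6.95% higher. Pax6 was also lower in Astrocytes (immature) 1, at -1.09, so it differed in both types where its level was highest. In Striatal inh2 Tshz1 was at -0.38 and Sp9 at -0.45, with 7.67% of genes lower and 7.27% higher, and in Striatal inh1 Sp9 was at 0.02, with 7.8% lower and 9.12% higher. The striatal types thus held no gene past the fold in HOM.

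Outside these 5 types some of the genes differed in excitatory neurons and in other types. The share over all genes is not given for them. Over all 18 types, 17 of 38 values of HOM against WT were lower past the fold and 1 higher. Of the lower values, 10 lay in the 5 types, where 7.67% to 19.9% of all genes were lower. Without that share in the other types, the count is not read as a result about the 8 genes. Sp8 in Int3 was at 48.9 CPM in HOM and 83.5 in WT (log2 -0.77). Calb2 in Astrocytes (immature) 2 was at -0.79 on the log2 scale. In LayerII-IV [1-P] cells Calb2 was at 99.2 CPM (WT), 46.7 (HET) and 10.9 (HOM), and Etv1 at 48.0, 62.2 and 17.0, beside 37.3, 40.3 and 15.9 in Microglia. The Calb2 values give -3.18 on the log2 scale for HOM against WT. Int1 [5-P], cortical interneurons, gave the single value higher past the fold in HOM against WT, Etv1 at 0.70 on the log2 scale.

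HOM and HET were last compared directly, and this comparison shares its libraries with both comparisons above. In Int4 7 genes could be compared and all were lower in HOM, 4 of them past 1.5-fold, where 16.5% of 3808 genes were lower and 4.02% higher. These were Calb2 at -2.15, Prokr2 at -1.23, Tshz1 at -0.73 and Etv1 at -0.71 on the log2 scale, while Sp8 was at -0.54, Sp9 at -0.07 and Pax6 at -0.04. In SVZ1 Calb2 was lower at -3.59, with 8.45% of genes lower and 5.06% higher, and in Ganglionic eminences Pax6 at -0.95, with 9.58% and 4.46%. Tshz1 in Striatal inh1 was at -0.63, with 4.99% of genes lower and 5.18% higher. Sp9 in Striatal inh2 was higher at 0.82, with 3.73% of genes higher and 4.7% lower.

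The 32 other bulb genes were read beside the members in Int4. In HET none of 18 compared passed 1.5-fold, with a median of -0.16 against 0.03 over all genes. In HOM 7 of 18 were lower and none higher, with a median of -0.45, where 19.9% of all genes were lower, 6.96% higher and the median was -0.13. Among those lower were Cdca7, a Myc target of dividing cells, at -0.93, Pbx3 at -0.92, Dlx6os1 at -0.83, Tiam2 at -0.67, Robo2 at -0.65 and Dlx1 at -0.62. Dlx5 stood at -0.02 and Dlx2 at -0.37. The list was not lower in Int4 alone. In HOM Ganglionic eminences 6 of 17 were lower and 1 higher (median -0.55), where 17.9% of all genes were lower and 6.95% higher. In Striatal inh2 5 of 22 were lower and 1 higher (-0.29), in SVZ1 3 of 12 and 1 (-0.19), and in Striatal inh1 1 of 13 and 1 (0.08). All genes there were lower in 7.67%, 14.6% and 7.8% and higher in 7.27%, 6.85% and 9.12%. In Int4 the list as a whole summed to 10126 CPM (WT), 8995 (HET) and 7244 (HOM). Genes of other cells were summed in the same way. The 12 radial glia genes summed to 1916, 2258 and 3040 CPM, with Fabp7 at 812, 1185 and 1778 but Sox2 at 159, 71.7 and 63.9, and of 10 compared in HOM 4 were higher and 1 lower, with a median of 0.37, beside the same values over all genes. The 13 vascular and meningeal genes summed to 227, 334 and 427 CPM, with Ptgds at 5.43, 0 and 196 and 5, 6 and 3 of the genes at 0. The 10 microglial genes summed to 54.3, 36.7 and 77.1 CPM, with 3, 7 and 2 of them at 0. Cycling genes summed to 3664, 2418 and 2818, of which Ccnd2 alone gave 2531, 1615 and 1784. Excitatory layer genes summed to 633, 676 and 597, dorsal progenitor genes to 475, 360.4 and 476, and Cajal-Retzius genes to 43.5, 20.0 and 35.2. The part of these genes in the member values was not tested. The striatal list summed to 253, 340.4 and 394 CPM, with Isl1 at 24.4, 63.4 and 72.7. The list of medial eminence interneurons summed to 445, 375 and 549. That of caudal eminence interneurons summed to 1691, 1567 and 1201, of which Nfib alone gave 1162, 909 and 764.

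Likeness was read as Pearson r of log2(CPM + 10) over 54 points, the 18 types in each library, among 12166 genes. The points share libraries and depth, so r is a description. Sp9 was most like Dlx5 (0.93), Gad2 (0.91) and Nrxn3 (0.89), and Tshz1 like Dlx5 (0.85), Gad2 (0.85) and Pbx3 (0.84). For Sp8 the closest were Grid2ip (0.83), St18 (0.82), a Myt1 family factor, and Dlx2 (0.77). Zic1 was closest to Zic4 (0.87), Dcdc2a (0.77) and Rab37 (0.76), and Pax6 to Ezr (0.86), Ccnd2 (0.82) and Msi2 (0.81). Etv1 came nearest to Tox3 (0.73), Ccnd2 (0.72) and Ccnq (0.71), Prokr2 to Zfp704 (0.72), Pcbp3 (0.65) and Gad1 (0.65), and Calb2 to Dusp4 (0.63), Sars (0.61) and Tubb4a (0.61). Among the members themselves Sp9 with Tshz1 was highest at 0.76, and Etv1 with Tshz1 lowest at 0.00.

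AAAGTT is the motif the study names for MYT1L, and the start regions of the members were searched for it on both strands, as AAAGTT or AACTTT. RefSeq has 10 windows for 6 of the genes, Sp8, Sp9, Zic1, Pax6, Etv1 and Prokr2. The motif was found in 2 of the 10 windows, and 14.1% of all 32851 windows hold it. It begins 21 bases before the first listed Pax6 start site, and 36 bases after the Zic1 start site, counted along the gene. The 30 bases around each match are given with the motif in capitals, Pax6 at chr2:105668863-105668892 on the plus strand and Zic1 at chr9:91365719-91365748 on the minus strand.
Pax6: tggatattaaggAAAGTTagcgcctgccgg
Zic1: ccggctgaggaggtgAAAGTTtctccccag
A match describes these letters only.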

How the data were processed

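Single-cell RNA was read from the 5′ end in 3 libraries, 1 per genotype with 2 pooled animals. Per the submitters' processing notes and the study's methods, Cell Ranger 4.0.0 (mm10) and Seurat 4.0 were used, and names of cell types were transferred from an atlas. No doublet caller was run, and whether the authors removed doublets is not stated. The gene matrix the authors deposited has a score unit of whole numbers that are not raw counts, since cells summed to 825 to 1952 while their molecules ran from 499 to 17602, with 617 of 36263 cells equal. It was treated as depth-corrected, so the planned Poisson intervals and thinning were not used and no count model was applied. From the table of cells that the authors deposited came molecule counts, the percent of mitochondrial molecules and, as a fraction, how probable each cell's type was. Tables of the authors' own comparisons (log2 fold changes, p-values, shares of cells) were not used.

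Values were summed per library and type and divided by their total. Ratios needed a sum of 50 over the pair of libraries and 100 cells of the type per library. The members and gene lists were chosen with earlier results of these data known. Named were the 8 genes, Myt1l, 3 genes most like each and up to 4 per list with the largest ratio in Int4. Genes read in the cells with Calb2, other list genes and the other Zic genes were looked up after values were seen. Alternatives were other scalings, minimum sums, depths, probabilities and sexes. Exact binomial intervals are at 95% and the limit for 0 cells is 3 counts. The ratio step alone was tested on simulated data, as Poisson draws for Int4, which differ from the depth-corrected values. For 1 gene of the lists the value is not reported here. Python 3.11.15, numpy 2.4.6, scipy 1.17.1 and pandas 2.3.3 were used, with GENCODE M21 and RefSeq tables of the same build.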

Additional observations from a re-analysis of the deposited data

Results flagged for a closer look

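Differences of opposite sign between cell types were found for 2 genes, and none of them was tested, since each rests on 1 library per genotype. Calb2 was higher in HET than in WT in Int4 [6-P], at 0.9 on the log2 scale, and lower in Astrocytes (immature) 2 [13-P], at -1.13. Its share interval in Int4 spanned 1. The astrocyte levels were low, at 11.0 CPM in HET and 24.0 in WT, beside 6.71 to 10.6 in Microglia. Calb2 was also higher in HOM than in HET in Int3 [11-P], at 0.83, and lower in SVZ1 (migrating) [2-P], at -3.59. Etv1 was higher in HOM than in WT in Int1 [5-P], at 0.7, and lower in SVZ1 (migrating) [2-P], at -2.38, where its share of cells was at the background seen in Microglia.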

How the results depend on the processing

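In the 5 types, 2 of 19 values of HET against WT were higher and 4 lower past 1.5-fold. The counts were 0 and 10 of 19 for HOM against WT, and 1 and 7 of 15 for HOM against HET. Over all genes of these types, 3.46% to 7.05% were higher and 5.04% to 8.03% lower in HET against WT. The same shares were 6.85% to 9.12% and 7.67% to 19.9% in HOM against WT, and 3.73% to 5.18% and 4.7% to 16.5% in HOM against HET. They are not given for the settings that follow. The lower counts were 7 of 26 in HET against WT, 15 of 26 in HOM against WT and 11 of 23 in HOM against HET with a minimum sum of 20, and 0, 4 and 1 with a minimum of 200, where 0 values of HET against WT and 0 of HOM against HET were higher. Among cells with a Y-linked transcript, 5, 4 and 4 values could be compared, with 0 higher and 4 lower in HET against WT, 0 higher and 0 lower in HOM against WT, and 1 higher and 0 lower in HOM against HET, with Etv1 in Int4 of HOM against HET at 0.41 instead of -0.71. The cause was not tested. Int4 cells with at least 1 member were 90.7%, 88.7% and 78.3% (WT, HET, HOM) at 2000 molecules or more, 69.5%, 69.3% and 51.7% at a probability of 0.9 or more, and 86.9%, 86.5% and 82.4% in cluster 13, an alternative chosen after seeing the data. With 3 or more members they were 44.7%, 40.5% and 27.9%, 25.4%, 26.2% and 14.7%, and 37.3%, 38.0% and 28.8%. Of the 24 genes most like the members, 6 were shared with Spearman rho, 11 with a pseudocount of 1 and 7 with WT only. Of the single values under other settings, 424 kept their verdict, 25 did not and 1 changed sign. No paired analysis was possible because the 4 samples of a genotype are runs of 1 library, and for the same reason no replicate could be left out. Depth limits genes such as Prokr2, which rest on under 100 counts per type and library.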
